A study of Mus musculus with 2 samples.

Results

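Interferon-high macrophages were the 184 macrophages with the highest share of UMIs from Rsad2, Ifit1, Ifit3 and Cmpk2, out of 1840 macrophages in tumours grown from MC38 cells. UMIs are unique molecular identifiers, each of which counts 1 captured RNA molecule. Barcodes with at least 200 genes and at most 20% mitochondrial UMIs were kept. A kept barcode counted as a macrophage with at least 20 UMIs of C1qa, C1qb and C1qc together, at least 1 UMI of Ptprc, none of Cd3d, Cd3e or Cd3g, and fewer than 3 of Mki67 and Top2a. The score of a cell was its UMIs of the 4 interferon genes divided by all its UMIs, and the highest 10% of both libraries pooled were taken. The members were therefore chosen by the values described here, and every comparison of members with other macrophages is a description without a test.

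Droplet single-cell RNA sequencing was done on 2 tumour samples, both grown in C57BL/6 mice from MC38, a mouse colon carcinoma line. The RSPO3-OE library came from MC38 cells that overexpress RSPO3, a secreted protein of the R-spondin family that raises the response of cells to Wnt ligands. The Ctrl library came from control MC38 cells. The labels call both tissues xenografts, although host and tumour line are both mouse, and the number of mice, the tumour site, the day of harvest and the overexpression vector are given by none of the sources at hand. Each group had 1 library, so no difference between RSPO3-OE and Ctrl has a replicate check, no p-value was computed, and genotype and library cannot be told apart. All intervals are 95% intervals that cover counting error only.

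Of 7314 RSPO3-OE and 7301 Ctrl barcodes, 7164 and 6990 were kept, with 155615189 and 143881763 UMIs over all barcodes. Macrophages made up 13.3% and 12.7% of the kept barcodes. The targeted gene Rspo3 had 14589 UMIs in 1089 kept RSPO3-OE cells and 2 UMIs in the kept Ctrl cells, so the libraries matched their labels. It had 0 UMIs in the interferon-high macrophages of both libraries, which allows up to 2.61 CPM (UMIs of a gene per 1000000 UMIs of the group) in RSPO3-OE and 2.87 CPM in Ctrl, taking 3 counts as the limit. The libraries shared 7 barcode sequences, none of them between macrophages.

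Type I interferons, such as interferon beta, bind the receptor IFNAR1/IFNAR2 and act through the kinases JAK1 and TYK2 on transcription factors such as STAT2. With IRF9 these form a complex that binds the interferon-stimulated response element, a DNA motif with a pair of GAAA repeats, and switches on a broad antiviral programme. Rsad2 encodes viperin, a radical SAM enzyme that makes a chain-terminating nucleotide, and Cmpk2 encodes a mitochondrial nucleotide kinase. Ifit1 encodes a protein that binds foreign RNA, and Ifit3 a partner that stabilises it. In tumours, macrophages are among the cells that both make interferon beta and respond to it.

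In the GRCm38 annotation the score genes lie as neighbours at 2 loci. Rsad2 (chromosome 12, 26442746 to 26456452, minus strand) and Cmpk2 (chromosome 12, 26469204 to 26479837, plus strand) point away from each other with 12751 bases between them. Ifit3 (chromosome 19, 34583531 to 34588731, plus strand) and Ifit1 (chromosome 19, 34640871 to 34650009, plus strand) stand 52139 bases apart. The 250 bases before the RefSeq transcription start of each score gene (GRCm38.p6) are shown, since these genes define the cells, with those of Isg15 as the best known interferon-stimulated gene outside the score. Capitals mark each match, on either strand, to GAAA followed by any 2 bases and a second GAAA, the core of the interferon-stimulated response element. Each sequence runs 5′ to 3′ on its gene's strand.
Rsad2, chr12:26456453-26456702, minus strand: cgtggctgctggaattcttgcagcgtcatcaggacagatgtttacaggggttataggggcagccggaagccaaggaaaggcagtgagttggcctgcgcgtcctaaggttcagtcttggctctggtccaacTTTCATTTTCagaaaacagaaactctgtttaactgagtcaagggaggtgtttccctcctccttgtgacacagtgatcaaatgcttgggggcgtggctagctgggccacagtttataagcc
Ifit1, chr19:34640639-34640888, plus strand: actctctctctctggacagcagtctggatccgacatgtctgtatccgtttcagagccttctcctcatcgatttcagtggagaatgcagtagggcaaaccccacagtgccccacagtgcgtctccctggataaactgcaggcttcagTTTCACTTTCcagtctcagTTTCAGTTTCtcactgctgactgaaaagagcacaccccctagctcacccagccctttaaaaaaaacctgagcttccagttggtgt
Ifit3, chr19:34583279-34583528, plus strand: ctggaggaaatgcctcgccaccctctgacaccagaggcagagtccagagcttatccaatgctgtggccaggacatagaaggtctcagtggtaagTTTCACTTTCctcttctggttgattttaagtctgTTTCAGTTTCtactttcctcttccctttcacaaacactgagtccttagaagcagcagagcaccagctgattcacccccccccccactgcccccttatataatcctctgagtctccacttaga
Cmpk2, chr12:26468965-26469214, plus strand: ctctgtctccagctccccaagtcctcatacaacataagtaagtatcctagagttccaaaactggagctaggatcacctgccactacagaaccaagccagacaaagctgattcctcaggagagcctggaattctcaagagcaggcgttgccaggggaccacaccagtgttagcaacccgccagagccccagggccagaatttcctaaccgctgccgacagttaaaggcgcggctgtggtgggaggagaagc
Isg15, chr4:156200819-156201068, minus strand: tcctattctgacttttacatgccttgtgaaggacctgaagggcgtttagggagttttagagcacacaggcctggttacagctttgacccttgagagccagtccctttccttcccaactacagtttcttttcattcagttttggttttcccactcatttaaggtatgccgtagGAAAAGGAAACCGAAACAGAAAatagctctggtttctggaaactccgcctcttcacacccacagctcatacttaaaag
The Rsad2 match lay 120 bases before the start, those of Ifit1 104 and 85 bases before it, and those of Ifit3 156 and 122 bases before it. All of these were on the opposite strand. Isg15 held 3 overlapping matches, 78, 72 and 66 bases before its start on its own strand. Cmpk2 had no match in this window, which says only that these letters are not there.

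Counted over windows of 300 bases, 250 before to 50 after the start, 1079 of 27025 genes in the RefSeq table held this motif (3.99%). Of 59 interferon-stimulated genes outside the score, from 6 lists of IFIT, OAS, ISG15-conjugation, antiviral effector, PARP and IFI200-family genes, 49 had an entry and 25 of these held the motif (51.0%). Among the 268 genes at least 2-fold higher in the interferon-high macrophages of both libraries, 51 of the 212 with an entry held it (24.1%). These 268 include the 4 score genes and many of the 59 interferon-stimulated genes. Of the 194 outside all gene lists, 20 of the 152 with an entry held it (13.2%). The genes at least 2-fold lower stood at 3 of 69 (4.35%), close to the 371 of 8882 (4.18%) for all genes compared. With a stricter motif that ends in a further C, 15 of the 49 interferon-stimulated genes and 0.944% of all genes held a match. A match is a description of the sequence and not a binding site.

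The interferon-high macrophages were spread evenly over the libraries, with 95 of 951 macrophages in RSPO3-OE (9.99%, Clopper-Pearson interval 8.16 to 12.1) and 89 of 889 in Ctrl (10.0%, 8.12 to 12.2). Their scores ran from 10.3 to 139 UMIs per 10000 UMIs of the cell, with a median of 20.2 in RSPO3-OE and 18.7 in Ctrl. Below them the libraries differed. The share of macrophages with a score of 0 was 34.9% in RSPO3-OE and 46.9% in Ctrl, and among the other macrophages 61.2% in RSPO3-OE (57.9 to 64.5) and 47.9% in Ctrl (44.4 to 51.4) held at least 1 score UMI. With each cell thinned to 3000 UMIs, and 8 and 9 shallower cells left out, these shares were 32.8% (29.6 to 36.1) and 25.4% (22.4 to 28.6).

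**Figure D1:**
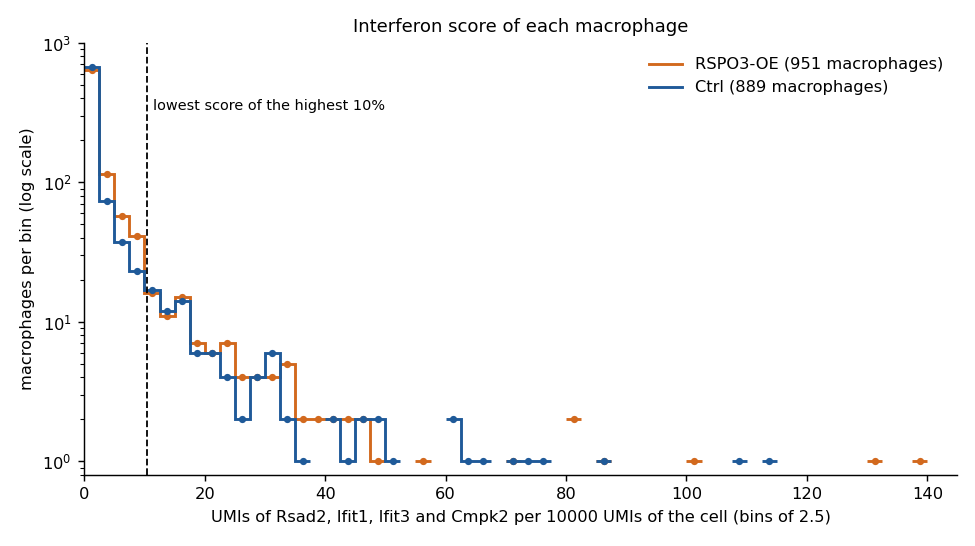
Histogram of the interferon score of each macrophage, the UMIs of Rsad2, Ifit1, Ifit3 and Cmpk2 per 10000 UMIs of the cell, in bins of 2.5 for RSPO3-OE (951 cells) and Ctrl (889 cells), with the number of cells on a log axis. The dashed line is the lowest member score of 10.3, and the scores fall without a gap on both sides of it, with a tail up to 139.

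The score had no natural break at the limit. The 3 members nearest to it scored 10.35, 10.37 and 10.41, and the 3 cells just outside 10.33, 10.30 and 10.28. Within 10% of the limit lay 12 members and 24 other macrophages, and within 20% 27 and 51. The class is thus a range of a continuous score. Whether its cells form a separate cell type was not tested, and a score on few UMIs cannot show it. RSPO3-OE members had a median of 10754 UMIs against 11618 in the other macrophages, and Ctrl members 11239 against 12069, so that depth was slightly lower in the members of both libraries. The score rested on a median of 25 UMIs per member in RSPO3-OE (2 to 120) and 23 in Ctrl (6 to 229). All 4 score genes were read in 58 of the 95 RSPO3-OE and 48 of the 89 Ctrl members, and 1 gene alone carried the score in 1 member of each library.

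Members and other macrophages had passed the same gate, so the macrophage label was set by the rule. C1qa, C1qb and C1qc are both gate genes and markers. Of 12 macrophage markers, none was at least 2-fold higher or lower in members of both libraries. Across all genes 2.38% were higher and 0.826% lower by this rule, so most lists would give few or none. The markers had medians of log2 ratio of -0.19 in RSPO3-OE and -0.02 in Ctrl. Csf1r, the receptor for colony-stimulating factor 1, stood at 439 CPM in members and 509 in other macrophages of RSPO3-OE, and at 433 and 508 CPM in Ctrl. Fcgr1, the high-affinity Fc gamma receptor, was the one marker higher in members of both libraries, by 0.64 (0.53 to 0.76) and 0.93 (0.83 to 1.03) on the log2 scale. Markers of other leukocytes were low but not all absent. The 6 T cell markers summed to 3.48 CPM in members of RSPO3-OE and to 1.91 CPM in those of Ctrl, and the 5 NK cell markers to 5.22 CPM and 0. The 4 B cell markers summed to 22.6 CPM against 34.4 CPM in other macrophages of RSPO3-OE and to 17.2 against 26.4 CPM in Ctrl, nearly all of it Cd79b, with a UMI in 17 of 95 and 14 of 89 members. The B and T cell sums were thus lower in members than in other macrophages of both libraries.

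The 6 neutrophil markers summed to 50.5 against 41.2 CPM in RSPO3-OE and to 34.4 against 26.3 CPM in Ctrl, with a UMI in 41 of 95 and 27 of 89 members. Csf3r, the receptor for granulocyte colony-stimulating factor, made up 55 of these UMIs in RSPO3-OE and 32 in Ctrl members, with log2 ratios of 0.40 (-0.04 to 0.81) and 0.36 (-0.22 to 0.89), while S100a8 and S100a9 had 1 or 2 UMIs each. The 4 plasmacytoid dendritic cell markers summed to 9.57 against 7.03 CPM in RSPO3-OE and to 3.83 against 9.93 CPM in Ctrl. All of the member UMIs were of Cox6a2, in 10 of 95 and 3 of 89 members, and Siglech, Ccr9 and Klk1 had none. Dendritic cell markers summed to 15.7 against 16.6 CPM and to 8.61 against 11.01 CPM. Mast cell and erythroid markers stood at 1.74 CPM or less in members.

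Endothelial markers summed to 29.6 against 25.04 CPM in RSPO3-OE and to 30.6 against 28.0 CPM in Ctrl. Among them Kdr, a receptor for vascular endothelial growth factor, was at 13.9 against 2.12 CPM and at 10.5 against 2.06 CPM, on 16 and 11 member UMIs, and Pecam1 at 13.9 against 21.96 CPM and at 17.2 against 25.3 CPM. The part of any of these cell types in the results was not tested.

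Tumour and stromal RNA was more abundant in members than the RNA of these cell types. The 8 markers of tumour and stromal cells, among them the collagen Col3a1, the proteoglycan Dcn and the keratin Krt8, summed to 1745 CPM in RSPO3-OE members against 731 CPM in other macrophages there, but to 361 and 419 CPM in Ctrl. Their median log2 ratio was 1.24 in RSPO3-OE and -0.33 in Ctrl. In RSPO3-OE, 7 of 95 members (7.37%, 3.01 to 14.6) held at least 1000 CPM of these markers, and those cells held 95.8% of all such UMIs in members. In Ctrl they were 3 of 89 members (3.37%, 0.701 to 9.54), with 90.2% of the UMIs. Scrublet, a doublet caller, marked 6 of the 7 and 3 of the 3 cells as doublets.

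All 4 score genes were far above the other macrophages in both libraries, as the rule requires. Rsad2 was at 1108 CPM in members and 61.2 in other macrophages of RSPO3-OE, and at 1045 and 39.3 CPM in Ctrl. Ifit3 stood at 854 against 75.8 CPM and at 1064 against 56.3 CPM. Ifit1 was read at 538 against 35.9 CPM and at 586 against 26.6 CPM. Cmpk2, the lowest of the 4, was at 161 against 12.5 CPM and at 160 against 6.88 CPM. In members the levels of Rsad2, Ifit1 and Cmpk2 were close in the libraries. Ifit3 had a log2 ratio of RSPO3-OE over Ctrl of -0.32 (-0.44 to -0.19) there. One limit on these genes chose the members of both libraries, which brings their levels together. The other macrophages of RSPO3-OE had the higher level of every score gene.

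The score genes can be split by locus, which gives values for 1 pair that the other pair did not choose. The highest 10% of macrophages by Rsad2 and Cmpk2 had 1051 CPM of Ifit1 and Ifit3 in RSPO3-OE against 133 CPM in the rest, a 7.89-fold difference, and 1476 against 117 CPM in Ctrl, 12.6-fold. Chosen by Ifit1 and Ifit3, the cells had 11.5-fold more Rsad2 and Cmpk2 in RSPO3-OE (1109 against 96.1 CPM) and 18.0-fold more in Ctrl (1062 against 59.1 CPM). The 2 loci were thus high in the same cells of both libraries. Of the cells chosen by Rsad2 and Cmpk2, 76 of 106 in RSPO3-OE and 64 of 78 in Ctrl were members.

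Other cells of the tumours carried these transcripts too. Summed over the 4 genes, RSPO3-OE members stood at 2661 CPM and other macrophages there at 185 CPM, and in Ctrl the values were 2854 and 129 CPM. Kept cells without a Ptprc UMI had 436 CPM (433 to 440) in the RSPO3-OE library but 237 CPM (234 to 239) in Ctrl. All macrophages, members included, had 432 CPM (420 to 444) in RSPO3-OE, about the level of the cells without Ptprc there, and 383 CPM (372 to 395) in Ctrl, above that of the cells without Ptprc. The lower values of the other macrophages follow from taking out the members, who were chosen by these genes. The part of free RNA in the low scores was not tested.

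Of 11255 genes with at least 10 UMIs in each library, 268 (2.38%) were at least 2-fold higher in members of both libraries. All 4 score genes, which chose the members, are among these. At least 2-fold lower in both were 93 genes (0.826%). Of the 59 interferon-stimulated genes outside the score, 56 could be compared, and 41 of these were at least 2-fold higher in both libraries and all 56 were higher in both. Across all genes 24.6% were higher in both. The 56 genes had a median log2 ratio of 1.37 in RSPO3-OE, where all genes had -0.03, and of 1.76 in Ctrl, where all genes had -0.09. With the cells rich in tumour RNA left out, a setting chosen after the data had been seen, 251 genes were at least 2-fold higher and 142 lower.

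**Figure D2:**
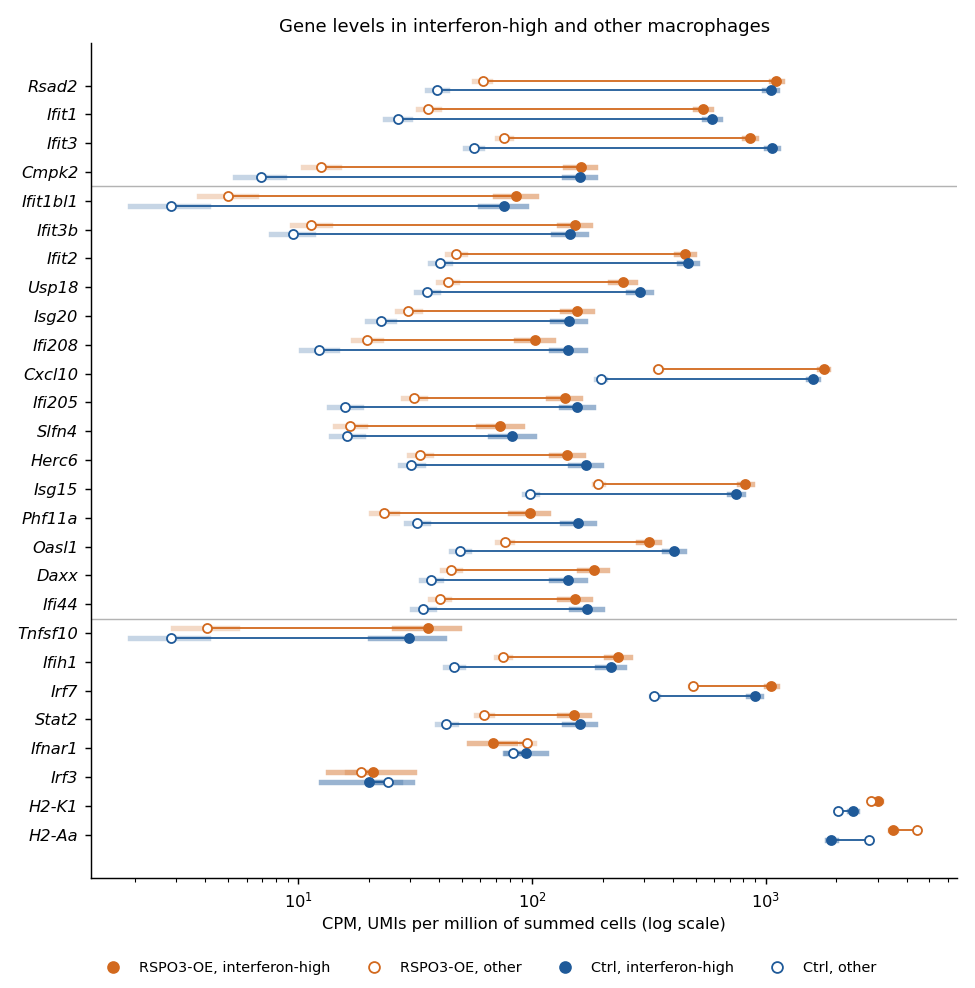
Level of 27 genes in CPM on a log axis, with filled points for interferon-high and open points for other macrophages, RSPO3-OE in orange and Ctrl in blue, and pale bars for exact Poisson 95% intervals. The 4 score genes are above the first line, the 15 genes with the highest ratios between the lines and examples of other roles below, where the points of Ifnar1, Irf3 and the MHC genes lie close together.

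The other IFIT genes followed the score most closely. Ifit2, another RNA-binding IFIT gene, was read at 450 CPM in members and 47.3 CPM in other macrophages of RSPO3-OE, and at 464 and 40.3 CPM in Ctrl. Ifit3b was at 152 against 11.4 CPM and at 145 against 9.44 CPM. Ifit1bl1 was at 85.3 against 5.01 CPM and at 75.6 against 2.85 CPM. Ifit3b and Ifit1bl1 are close copies of Ifit3 and Ifit1, so reads may have been divided between them, and their levels are uncertain.

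In the ISG15 pathway, which attaches the ubiquitin-like protein ISG15 to other proteins, 4 of 5 genes were at least 2-fold higher in both libraries. Isg15 itself was at 816 against 192 CPM in RSPO3-OE and at 743 against 98.0 CPM in Ctrl. Usp18, the protease that removes ISG15 and also damps the interferon receptor, stood at 244 against 43.6 CPM and at 288 against 35.5 CPM. The mouse ISG15 ligase Herc6 and the conjugating enzyme Ube2l6 were higher by 2.09 and 1.38 on the log2 scale in RSPO3-OE and by 2.48 and 1.39 in Ctrl. Uba7, the activating enzyme, was the gene below 2-fold, at 0.74 and 0.71.

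The OAS genes, which make or relate to the 2-5A signal that activates RNase L, had 5 of 7 members at least 2-fold higher in both libraries. Oasl1 had the highest level in members, with 315 against 76.1 CPM in RSPO3-OE and 404 against 49.0 CPM in Ctrl. Oas3 was higher by 1.82 (1.59 to 2.05) and 2.57 (2.29 to 2.85). Oas1a (0.63 and 1.08) and Oas1c (1.16 and 0.64) passed 2-fold in 1 library each. The Oas1 genes are near-copies of each other and their split of reads is uncertain.

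All 10 comparable genes of the IFI200 family, DNA-binding proteins encoded side by side on chromosome 1, were at least 2-fold higher in members of both libraries. Ifi208 was at 103 against 19.6 CPM in RSPO3-OE and at 143 against 12.3 CPM in Ctrl. Ifi205 stood at 138 against 31.2 CPM and at 156 against 15.8 CPM. Ifi207 was the least apart, with log2 ratios of 1.09 and 1.51. The family's summed level was 3304 CPM in members and 1162 in other macrophages of RSPO3-OE, and 3618 and 908 CPM in Ctrl.

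Of 25 comparable antiviral effectors, 17 were at least 2-fold higher in both libraries. Isg20, an exonuclease, was at 156 against 29.5 CPM and at 144 against 22.5 CPM. Slfn4, of the Schlafen family, stood at 73.1 against 16.7 CPM and at 82.3 against 16.1 CPM, and Ifi44 at 152 against 40.2 CPM and at 171 against 34.1 CPM. Phf11a, one of several near-copies whose reads may have been divided between them, was at 97.5 against 23.3 CPM and at 157 against 32.1 CPM. Those nearest to the other macrophages were genes with a high level in every macrophage. Ly6e differed by 0.34 and 0.48, Ifi27l2a by 0.46 and 0.59, Bst2, which tethers virions, by 0.44 and 0.72, and Ifitm3, which blocks viral entry, by 0.65 and 0.76. Ifitm3 was at 3607 against 2292 CPM in RSPO3-OE, so the smaller ratio came with a larger difference in CPM than that of any score gene. Among 6 PARP and Dtx3l genes, 2 passed 2-fold in both libraries and the others lay between 0.96 and 1.83.

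Ifnb1, the gene of interferon beta, was the interferon gene read in members. Ifnb1 (chromosome 4, 88522025 to 88522774, minus strand) had 38 UMIs in 2 of 95 RSPO3-OE members and 36 UMIs in 6 of 89 Ctrl members. The other macrophages held 2 and 4 UMIs, in 2 cells of each library. Members thus held 60.3% of all Ifnb1 UMIs of the kept RSPO3-OE cells, which had 63 in 15 cells, and 50% of those of the kept Ctrl cells, which had 72 in 21 cells. Of the 21 interferon genes listed, among them the Ifna genes and Ifng, no other had a UMI in a member.

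The Ifnb1 transcripts sat in few cells at different scores. In RSPO3-OE 1 member held 32 Ifnb1 UMIs at a score of 12.1, the 85th of its library, and the member with the highest score of all, 139, held 6. In Ctrl the 4th and 7th highest scores, 76.9 and 66.5, held 16 and 14 Ifnb1 UMIs, and 4 further members held 1 or 2. The cell with 6 Ifnb1 UMIs in RSPO3-OE and that with 14 in Ctrl were also the members with the most Tnf, at 38 and 20 UMIs. With 2 cells the RSPO3-OE value rests on single cells: under a score from Rsad2 and Cmpk2 alone the cell with 32 UMIs was no member and the log2 ratio went from 7.42 to 0.70.

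The receptors and kinases upstream were nearly level between members and other macrophages. Ifnar1 had a log2 ratio of -0.49 (-0.84 to -0.15) in RSPO3-OE but of 0.19 (-0.13 to 0.49) in Ctrl, and Ifnar2 by -0.04 and -0.09. Tyk2 stood at 0.56 (-0.04 to 1.11) and 0.34 (-0.34 to 0.95), and Jak1 at 0.05 and -0.17. The interferon gamma receptor genes Ifngr1 and Ifngr2 were lower by 0.43 at most. Stat2, a transcription factor downstream of the receptor, was at 151 against 62.3 CPM in RSPO3-OE and at 160 against 43.0 CPM in Ctrl, the 1 gene of 10 that passed 2-fold in both libraries. Irf9 differed by 0.22 (-0.15 to 0.57) and 0.37 (-0.02 to 0.74).

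Among 6 comparable interferon regulatory factors only Irf7, which amplifies interferon production and is itself interferon-induced, passed 2-fold in both libraries. It was at 1054 against 485 CPM in RSPO3-OE and at 893 against 332 CPM in Ctrl. Irf1 and Irf2 were higher by 0.34 to 0.69, and the log2 ratios of Irf3, Irf5 and Irf8 lay between -0.26 and 0.17. Of 6 feedback genes, Socs1, which blocks JAK kinases, was at 98.4 against 46.0 CPM and at 53.6 against 17.7 CPM. Socs3, Cish, Ptpn2, Ptpn6 and Pias1 lay between -0.22 and 0.37.

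Of 14 sensor and adaptor genes 5 were at least 2-fold higher in both libraries, and these included all 3 RNA helicases of the RIG-I family. Ifih1, which encodes the sensor MDA5, was at 233 against 74.9 CPM in RSPO3-OE and at 217 against 46.4 CPM in Ctrl. Ddx58, which encodes RIG-I, was at 129 against 49.0 CPM and at 160 against 34.2 CPM, and Dhx58 at 113 against 53.3 CPM and at 112 against 41.9 CPM. Trim25, a ubiquitin ligase of that pathway, was higher by 1.14 and 1.24, and Tlr3, the endosomal sensor of double-stranded RNA, by 1.69 and 1.84. The DNA sensor Cgas stood at 1.32 (0.83 to 1.79) in RSPO3-OE but at 0.46 (-0.18 to 1.05) in Ctrl. Among the adaptors downstream, Myd88, which serves the Toll-like receptors, was higher by 0.61 (0.26 to 0.94) and 0.95 (0.62 to 1.28). Tmem173, which encodes STING, was at -0.12 and -0.29, Mavs at 0.18 and -0.67 and Ticam1 at -0.27 and 0.16, each with intervals that include 0.

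Of 10 cell death genes 2 passed 2-fold in both libraries. Tnfsf10, which encodes the death ligand TRAIL, was at 35.7 against 4.04 CPM in RSPO3-OE and at 29.7 against 2.85 CPM in Ctrl, a larger ratio than that of most interferon-stimulated genes. Daxx was at 183 against 45.0 CPM and at 143 against 37.0 CPM. Ripk1 and Gsdmd lay between -0.04 and 0.26.

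Genes known best for their response to interferon gamma were higher as well, with 9 of 19 at least 2-fold in both libraries and 17 higher in both. Gbp5, a guanylate-binding protein, was at 58.3 against 21.5 CPM in RSPO3-OE and at 46.9 against 11.01 CPM in Ctrl. The GTPase Irgm2 was higher by 1.27 and 2.15, and Iigp1 by 1.24 and 1.71. Nos2, the inducible nitric oxide synthase, was at 91.4 against 35.2 CPM and at 53.6 against 26.2 CPM, but 1 cell in each library held 24.8% and 26.8% of its member UMIs. Cxcl9, the classic interferon gamma chemokine, stood apart from this list with 0.32 (0.23 to 0.40) and 0.02 (-0.13 to 0.16). Ciita, the master regulator of MHC class II, was lower by 0.45 and 0.99.

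Antigen presentation split by class. None of 18 MHC class I genes passed 2-fold in both libraries, and the median log2 ratios were 0.25 and 0.27. H2-K1 was at 3012 against 2810 CPM in RSPO3-OE and at 2365 against 2030 CPM in Ctrl, while the non-classical H2-T22 had the highest ratios with 0.89 and 1.17. All 7 class II genes were lower in members of both libraries, none by 2-fold in both, with medians of -0.33 and -0.54. Across all genes 35.3% were lower in both. H2-Oa among the 7 had only 1 and 2 member UMIs. H2-Aa was at 3480 against 4428 CPM and at 1900 against 2765 CPM.

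Among chemokines Cxcl10, the ligand of CXCR3 that both interferon types induce, was at 1766 against 345 CPM in RSPO3-OE and at 1592 against 196 CPM in Ctrl. Its single highest cell held 10.0% and 8.11% of the member UMIs. Ccl4, which attracts immune cells, was at 1131 against 565 CPM and at 842 against 370 CPM, and it and Cxcl10 were the 2 of 12 chemokines at least 2-fold higher in both libraries. Ccl2 was higher by 0.79 and 0.22, and Ccl12 by 0.70 and 1.17. Ccl5 was higher by 0.62 and 1.82, but 1 cell rich in tumour RNA held 19.0% of its member UMIs in RSPO3-OE and another 36.8% in Ctrl. Cxcl3 had 1 UMI in RSPO3-OE members and 0 in Ctrl members, beside 96 and 120 in other macrophages. Cxcl2, like Cxcl3 a neutrophil attractant, was lower by 0.20 and 0.30. Il1b, the gene of interleukin 1 beta, was lower too, at 984 against 1640 CPM in RSPO3-OE and at 532 against 722 CPM in Ctrl. Tnf was higher by 1.03 and 1.66, but 1 cell in each library held 30.4% and 21.5% of its member UMIs.

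Monocyte genes summed to 1385 CPM in members and 625 CPM in other macrophages of RSPO3-OE, and to 586 and 309 CPM in Ctrl. No UMI of the 8 genes was read in 34 of 95 RSPO3-OE and 48 of 89 Ctrl members. Among the other macrophages this held for 365 of 856 cells in RSPO3-OE and 427 of 800 in Ctrl. Ly6c2, which marks inflammatory monocytes, was at 446 against 150 CPM in RSPO3-OE and at 148 against 49.6 CPM in Ctrl, about the same ratio of 1.57 and 1.58. It was read in 25.3% and 12.4% of members and in 16.8% and 6.2% of other macrophages, and 1 cell held 56.1% of the Ctrl member UMIs. Plac8 was higher by 1.48 and 1.24, and the monocyte chemokine receptor Ccr2 differed by -0.07 and 0.02. Chil3 was at 76.6 against 41.8 CPM and at 17.2 against 0.983 CPM, with 90.9% of the RSPO3-OE member UMIs in 1 cell. In all, 4 of 8 monocyte markers were at least 2-fold higher in both libraries, of which Hp had 13 member UMIs in RSPO3-OE and 4 in Ctrl.

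No gene that the rule named as lowest reached 2-fold, so none of the 93 genes at least 2-fold lower in both libraries met the limits for naming. Klrb1b, an inhibitory lectin-like receptor, was at 44.4 against 83.1 CPM in RSPO3-OE and at 40.2 against 74.7 CPM in Ctrl. Prxl2b was at 34.8 against 63.4 CPM and at 45.0 against 80.5 CPM. Txn2, mitochondrial thioredoxin, Tnfaip2, Camk1d and Hebp1 had log2 ratios between -0.88 and -0.48. The chemokine gene Ccl6 stood at -0.75 and -0.58, but the cell ranked 96th in RSPO3-OE, the first outside the limit, held 374 of the 4047 Ccl6 UMIs of the other macrophages, and with it among the members the ratio was 0.63. Without the cells rich in tumour RNA the RSPO3-OE ratio was 0.78, and with a score from Rsad2 and Cmpk2 alone the ratios were 0.93 and 0.20, so Ccl6 was not lower in members under these settings. Of 8 genes of alternative activation none was 2-fold apart in both libraries and none was higher in both. The mannose receptor gene Mrc1 had log2 ratios of -0.28 and -0.48, the lectin gene Mgl2 -0.45 and -1.25, and Arg1, which encodes arginase, -0.33 and 0.23. Of 14 genes of lipid handling, Lpl, lipoprotein lipase, was at 10.4 against 24.3 CPM and at 4.78 against 19.1 CPM. Ch25h, an interferon-induced enzyme that makes 25-hydroxycholesterol, was higher by 0.91 and 1.36, while the cholesterol synthesis genes Hmgcs1 and Idi1 lay between -0.15 and 0.22.

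Over the whole range of the score, each higher class of cells had more of the interferon-stimulated genes outside it in both libraries. Macrophages were put into 5 classes: a score of 0, non-members with a score up to and above the median of those above 0, and members up to and above the member median. In RSPO3-OE the 59 genes summed to 8728, 10213, 14245, 17773 and 25732 CPM from the lowest to the highest class. In Ctrl they summed to 8235, 10138, 14818, 20734 and 26909 CPM. RSPO3-OE was the higher library in the lowest 2 classes and Ctrl in the other 3. The interferon gamma genes were also higher in each higher class, from 1839 to 4397 CPM in RSPO3-OE and from 1127 to 2937 CPM in Ctrl, with RSPO3-OE higher in every class.

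MHC class II genes ran the other way in Ctrl, from 18899 CPM at a score of 0 down to 12108 CPM in the highest class. In RSPO3-OE they were at 24641 CPM at a score of 0, at 15284 CPM in the lower-scoring members and at 24749 CPM in the higher-scoring members, so the order did not hold there. In those lower-scoring RSPO3-OE members the tumour and stromal markers summed to 2888 CPM, against 104 to 1284 CPM in the 3 classes below and 490 CPM in the class above. The 12 macrophage markers summed to 30742 CPM there, against 41607 CPM in the class below and 43172 CPM in the class above. The part of tumour RNA in the low class II value was not tested. Monocyte markers went up from 520 to 1549 CPM in RSPO3-OE class by class. In Ctrl they stood at 247 CPM at a score of 0 and at 738 CPM in the highest class, with 450 CPM in the lower-scoring members below the 502 CPM of the class beneath them.

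**Figure D3:**
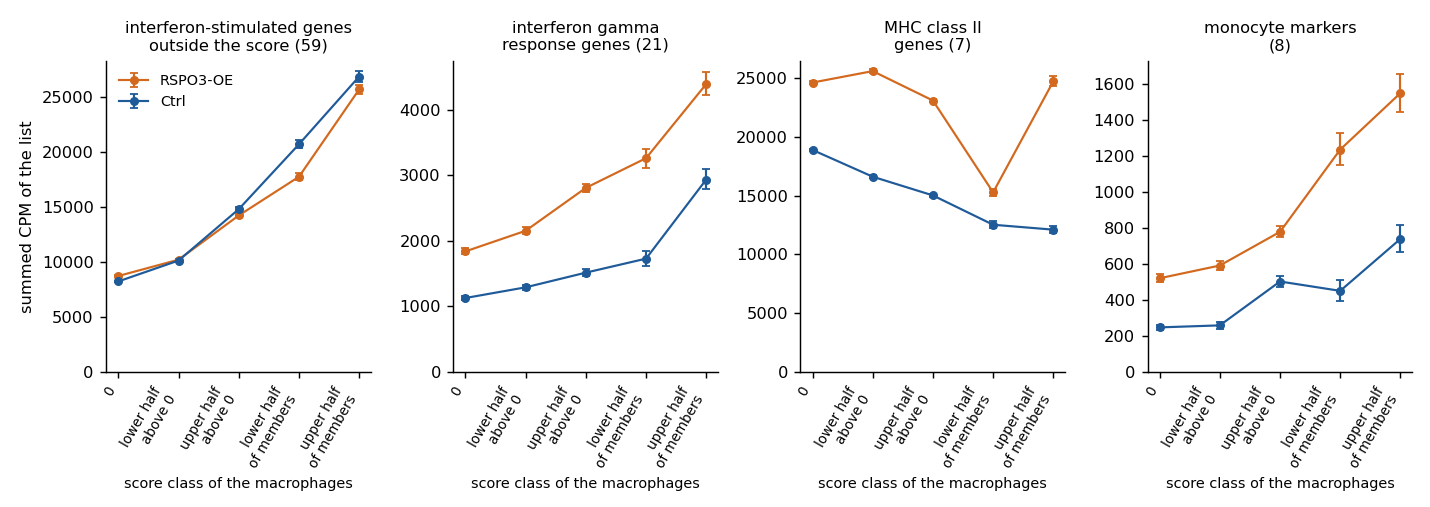
Summed CPM of 4 gene lists in macrophages of 5 score classes, with counting 95% intervals, for RSPO3-OE (orange) and Ctrl (blue). The interferon-stimulated genes outside the score are higher in each higher class of both libraries, up to 25732 and 26909 CPM, while MHC class II genes stand at 15284 CPM in the lower-scoring RSPO3-OE members.

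Single cells overlapped in these levels. Per cell, the 59 interferon-stimulated genes had a median of 216 UMIs per 10000 in RSPO3-OE members (66.3 to 456) and 102 in other macrophages (19.6 to 434), and 248 (44.7 to 682) and 92.0 (10.0 to 396) in Ctrl. In RSPO3-OE 88 of 95 members lay above the median of the other macrophages and 49 above their 95th percentile. In Ctrl these were 84 and 47 of 89. The other 7 RSPO3-OE and 5 Ctrl members had a high score with no more of the wider programme than the median macrophage.

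The interferon-high macrophages of the libraries were compared with each other, with the same ratio in the other macrophages beside it. Of 9053 genes with at least 10 UMIs, 983 were at least 2-fold higher in RSPO3-OE members (10.9%) and 282 at least 2-fold lower (3.11%). In the other macrophages the counts were 580 of 12301 (4.72%) and 413 (3.36%). Without the cells rich in tumour RNA the member counts were 687 higher and 318 lower. With cells thinned to 3000 UMIs they were 676 and 254. Both settings also changed which cells were members, and the part of tumour RNA in the counts was not tested.

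The interferon programme itself differed little between the members of the libraries. None of the 4 score genes and none of the 56 interferon-stimulated genes outside the score was 2-fold apart. The score genes had log2 ratios of RSPO3-OE over Ctrl from -0.32 to 0.08, and one limit on the score chose the members of both. The 56 genes outside the score had a median of -0.07, from -0.63 for Oas2 to 0.98 for Zc3hav1, and 22 of them were above 0. In the other macrophages the same genes had a median of 0.27, 50 of 56 were above 0 and none was 2-fold apart. Across all genes the medians were 0.13 in members and 0.05 in other macrophages. The ratio was lower in the members than in the other macrophages for 52 of 56. These genes rise with the score, so the shared limit bears on them as well, and this contrast was not tested. Isg15 was at 816 and 743 CPM in members but at 192 and 98.0 CPM in the other macrophages of RSPO3-OE and Ctrl.

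The largest differences between the members of the libraries lay outside the interferon genes, and many were as large in the other macrophages. Pdcd1lg2, which encodes the checkpoint ligand PD-L2, was at 54.8 CPM in members of RSPO3-OE and at 2.87 CPM in those of Ctrl, and at 46.6 and 2.65 CPM in the other macrophages. The orphan nuclear receptors Nr4a3 and Nr4a2 had log2 ratios of 3.89 (2.80 to 5.24) and 2.71 (2.14 to 3.32) in members, and 3.81 and 2.73 in other macrophages. Klf4 was at 810 and 128 CPM in members and at 702 and 150 CPM in others. Slc7a2, an arginine transporter, was at 108 and 10.5 CPM in members and at 98.5 and 10.9 CPM in others. The ratio of each of these genes was about the same in members as in other macrophages.

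Some of the named ratios were larger in members than in others. The genes were picked by their ratio in members, which favours a larger size there, and the difference from the others was not tested. F10, coagulation factor X, was at 71.4 and 6.70 CPM in members and at 57.4 and 12.8 CPM in others. Dusp5 had log2 ratios of 2.67 and 1.55, and Rrad of 2.62 and 1.68. Id3 and Aspn, at 3.45 and 3.41 in members against 1.43 and 0.76 in others, rested on tumour-rich cells, which held 90.3% and 97.1% of their RSPO3-OE member UMIs. Without those cells their ratios were 0.25 and 1.03.

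In the other direction, the heat shock genes Hspa1b and Hspa1a were at 54.8 and 102 CPM in RSPO3-OE members and at 222 and 232 CPM in Ctrl members. They are near-identical copies, and in the other macrophages their log2 ratios were -2.75 and -2.14. Cxcl14, Fcrls and Nt5e, which encodes CD73, were lower in RSPO3-OE members by 1.36, 1.36 and 1.25 and in other macrophages by 1.85, 1.81 and 1.28. Apoc2, an apolipoprotein, had -1.22 and -0.83, and Tnfsf13b, which encodes the B cell factor BAFF, -1.08 and -0.33. Prelid2 had -1.57 (-2.39 to -0.81) in members and -0.26 in others, and Dpep2 and Arl6ip4 -1.19 and -1.08 against -0.44 and -0.06. The genes of this direction were likewise picked by their ratio in members.

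**Figure D4:**
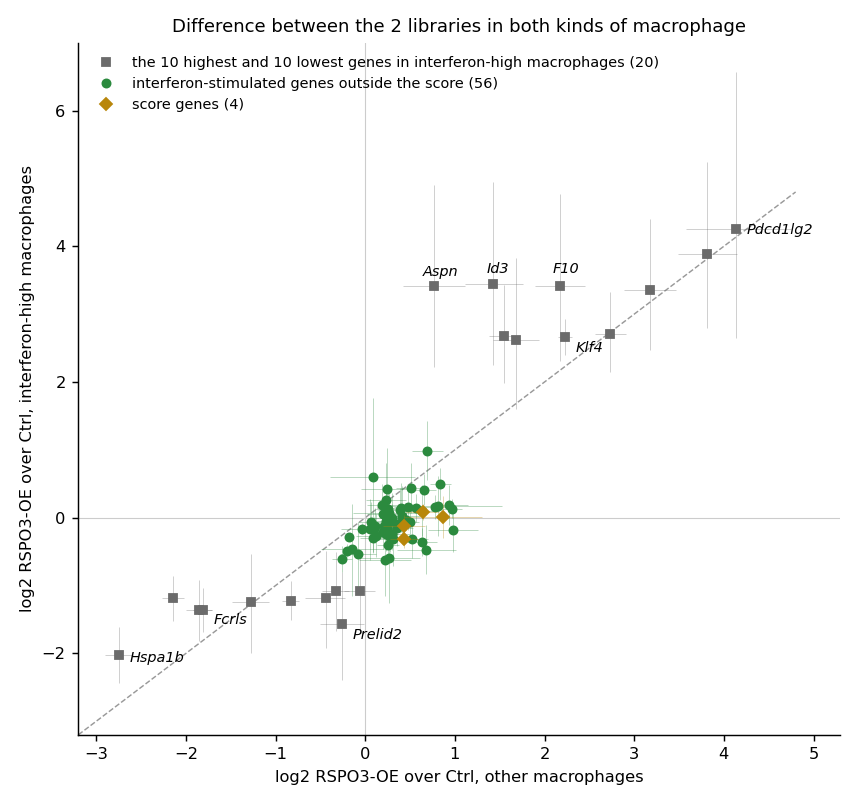
Log2 ratio of RSPO3-OE over Ctrl in interferon-high macrophages against the same ratio in other macrophages, with 95% counting intervals, for the 4 score genes, 56 interferon-stimulated genes outside the score and the 10 highest and 10 lowest genes in members; the dashed line is equality. Most interferon genes lie below the line and near 0 on the vertical axis (median -0.07), while Pdcd1lg2 at 4.26 lies close to it and Id3 and Aspn stand above it.

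Other gene groups are given with both ratios of RSPO3-OE over Ctrl, in members and in other macrophages, whose difference was not tested. Across all genes 10.9% were at least 2-fold higher in RSPO3-OE in members and 4.72% in other macrophages. Inflammatory genes had a median log2 ratio of 1.47 in members, with 5 of 9 at least 2-fold higher in RSPO3-OE, and 1.59 in others with 9 of 10. Ptgs2, which encodes cyclooxygenase 2, was at 235 and 61.2 CPM in members. Irf1 was at 187 and 83.2 CPM in members and at 148 and 56.6 CPM in others. Socs1 had 0.88 and 1.38, and the STAT5 target Cish 1.68 and 1.75. Cxcl9 was at 1112 and 434 CPM in members and at 894 and 430 CPM in others, and Ccl8 at 906 and 159 CPM in members, where 1 cell held 44.6% and 42.8% of the UMIs. MHC class II genes had medians of 0.75 in members and 0.44 in others. S phase genes had 0.77 in members, with 4 of 10 at least 2-fold higher, and -0.23 in others with none. Tumour and stromal markers had 2.60 with 8 of 8 and 0.95 with 4 of 8, and heat shock genes 0.11 and -0.27.

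Other high classes taken the same way, as the highest 10% of macrophages by 1 gene, overlapped the interferon-high cells in part. Of the 184 members 28 were also among the 184 macrophages highest in Cxcl9 (15.2% of each, against 9.42% of the other macrophages), 26 among those highest in Ly6c2 (14.1% against 9.54%), 22 for Folr2 (12.0% against 9.78%) and 14 for Ccl8 (7.61% against 10.3%). For Cxcl9 the shares of members and other macrophages were 21.1% and 13.3% in RSPO3-OE and 8.99% and 5.25% in Ctrl.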

How the data were processed

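The authors deposited raw UMI counts per gene and barcode, made with Cell Ranger 3.0.1 on mm10 from 10x 3′ libraries, per the labels' protocols and, for the versions, the submitters' processing notes. The matrix headers give software version 3.1.0. The 2 libraries were grouped by the labelled genotype. Gene symbols came from the files, and a symbol with more than 1 identifier was given to the one with most UMIs. Mx1, Mx2, Oas1b and Cxcl11 are not analysed here, and some other genes are not reported here.

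UMIs were summed over cells and divided by the group total to give CPM. Log2 ratios have exact binomial intervals, shares Clopper-Pearson intervals and sums Poisson intervals. A sum of 0 was set to 3 counts, which in the smaller group of members can lie above the level in the other macrophages. Genes needed 10 UMIs over both groups (in each library for members against other macrophages), and a call means 2-fold. No doublets were removed. Scrublet (scanpy 1.11.5, expected rate 0.05) marked 171 and 95 kept cells.

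The members and 38 gene lists were chosen with earlier results of these data known. Named genes are the 15 highest and 8 lowest by the ratio nearer 0 of the libraries, and the 10 highest and 10 lowest between libraries, with at least 50 CPM, 30 UMIs and 0.5 times the CPM of all kept cells. Genes of the score, the gate, mitochondria, ribosomes, antigen receptors and haemoglobin, and models without a name, were left out. Selected members of lists are also named, some of them chosen after their values were seen. Promoters came from RefSeq (GRCm38.p6). Python 3.11.15, numpy 2.4.6, scipy 1.17.1 and pandas 2.3.3 were used. The ratios were tested on simulated counts, with fold changes put only into genes with larger expected counts and not into genes near a sum of 0. Alternatives were other limits, scores, depths, filters and scalings.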

Additional observations from a re-analysis of the deposited data

Results flagged for a closer look

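For S phase genes, which replicate DNA, the members of the libraries lay on opposite sides of the other macrophages. The median log2 ratio of 10 genes was 0.33 in RSPO3-OE and -0.63 in Ctrl. Dut stood at 0.82 and -0.61, and Mcm5 at 0.35 and -1.08. The difference between the libraries was not tested.

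For the 8 tumour and stromal markers the median was 1.24 in RSPO3-OE and -0.33 in Ctrl. Mgp was at 204 against 80.7 CPM in RSPO3-OE and at 3.83 against 14.7 CPM in Ctrl. This difference was not tested either, and 7 RSPO3-OE members held 95.8% of the UMIs.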

How the results depend on the processing

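Across 13 other settings, 59 gene ratios of at least 2-fold gave 767 values, of which 764 kept their direction and 51 moved by over 1.5 times. The 3 that turned were Id3 between libraries (-0.0112 with a score from Rsad2 and Cmpk2, -0.00974 without Scrublet's doublets) and Ifnb1 in RSPO3-OE (-0.53 with cells thinned to 3000 UMIs). Of 11 list medians only that of the tumour markers in RSPO3-OE turned, to -1.50 with the highest 5% and -0.21 without cells rich in tumour RNA. The cause was not tested. Taking the highest 5% gave shares of 5.15% and 4.84%, with 788 genes higher and 224 lower in members, and the highest 20% gave 22.1% and 17.8%, with 149 and 50. With fewer member UMIs the 3 counts given to a sum of 0 weigh more, so more genes with 0 member UMIs can count as higher. Their part in the 788 was not counted. With the cells' own CPM 142 genes were lower, as many as without cells rich in tumour RNA (142). Genes with at least 1 UMI gave 2346 higher in members, and 1947 higher and 1440 lower between libraries, many of them on 0 counts in 1 group. The stricter motif left 15 of the 25 genes. Median-of-ratios scaling moved all ratios by 0.11 at most. No paired analysis was possible because each group had 1 library, and with 95 and 89 members genes under about 10 UMIs gave no usable ratio.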
